A study of Mus musculus with 12 samples.

Results

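The genes described here are 31 genes of the endoplasmic reticulum (ER) folding machinery and of the unfolded protein response, read in bone marrow-derived macrophages of wild-type (WT) mice. They were chosen by name, as listed genes looked up by symbol in the deposited count table. The list was drawn up with earlier results of these data known. All 31 were found among the 32285 genes of the table, and all 31 passed the filter on low counts, as did 14113 genes in all. The cells had been kept for 16 h in medium with 1 of 3 organic acids, itaconic (IA), malonic (MA) or methylsuccinic (MetSA), each added from a 50 mM stock to a final 5 mM, or in medium alone (M). Each of the 4 groups had 3 libraries made from polyadenylated RNA. The labels call them biological replicates without saying whether they came from separate animals, so p-values measure the spread between these samples. IA is the unsaturated dicarboxylic acid that activated macrophages make, MetSA has the same carbon skeleton without its double bond, and MA is a shorter saturated dicarboxylic acid. All groups were WT, and no library of a mutant or of cells given another stimulus was analysed here.

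The ER is where secreted and membrane proteins enter through the Sec61 channel, fold with the help of chaperones, lectins and disulfide isomerases, and are sent on to the Golgi or, when misfolded, back to the cytosol for degradation. Unfolded protein in its lumen is sensed by 3 membrane proteins: Ern1 (IRE1), whose RNase makes the spliced and active form of Xbp1, Atf6, which is cut in the Golgi to free a transcription factor, and Eif2ak3 (PERK), a kinase that slows translation and favours the making of Atf4. Spliced Xbp1 and cut Atf6 raise the transcription of chaperone and degradation genes, many of them through the ER stress element in their promoters. Macrophages secrete much protein, which passes through this machinery. Splicing of Xbp1, cutting of Atf6 and phosphorylation cannot be read from counts per gene, so the values below are those of messenger RNA only.

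The promoters of 26 of the 31 genes could be matched by symbol in a RefSeq table (build GRCm38.p6) that gives 250 bases before and 50 bases after each start; Atf6, Derl1, Sec61a1, Manf and Hyou1 were not matched. The ER stress element, searched as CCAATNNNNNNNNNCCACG on both strands, was found in the window of 9 of these 26 genes (34.615%), against 37 of all 27025 gene symbols in the table. Counted by promoter, it was in 39 of all 32851 (0.119%). The shares of all promoters given here and below count windows rather than genes, and include those of the members. A second form, ATTGGNCCACG, which shares the CCACG end, was found in 2 of the 26 (7.692%), Herpud1 and Dnajb11, and in 12 of all promoters (0.037%). The core of the unfolded protein response element, TGACGTGG, was found in Sec24d alone among the 26, and in 222 of all promoters (0.676%). The Atf4 composite core TGATGNAAT was in none of the 26 windows and in 317 of all promoters (0.965%). The stretches below are shown because they belong to the most abundant chaperones (Hspa5, Calr, Hsp90b1), to a disulfide isomerase and a co-chaperone with the same element (Pdia6, Dnajc3), to a gene called lower under IA and MA (Herpud1) and to the least abundant member (Derl3). Each reads 5′ to 3′ on the strand of its gene, with the element in capitals; an element reads from its CGTGG end where the match is on the other strand.
Hspa5, chr2:34772020-34772048, plus strand: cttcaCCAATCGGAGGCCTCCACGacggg
Calr, chr8:84847060-84847108, minus strand: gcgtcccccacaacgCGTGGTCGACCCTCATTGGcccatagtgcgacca
Hsp90b1, chr10:86705518-86705671, minus strand: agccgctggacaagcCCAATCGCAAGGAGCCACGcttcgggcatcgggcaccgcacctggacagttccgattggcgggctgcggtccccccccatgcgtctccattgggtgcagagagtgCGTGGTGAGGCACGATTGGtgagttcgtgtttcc
Pdia6, chr12:17266476-17266524, plus strand: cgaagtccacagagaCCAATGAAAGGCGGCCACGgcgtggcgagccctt
Dnajc3, chr14:118937812-118937860, plus strand: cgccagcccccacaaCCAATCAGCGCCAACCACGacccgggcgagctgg
Derl3, chr10:75893227-75893275, plus strand: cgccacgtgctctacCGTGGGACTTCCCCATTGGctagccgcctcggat
Herpud1, chr8:94386362-94386402, plus strand: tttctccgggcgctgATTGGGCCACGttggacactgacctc
Hsp90b1 held the element at 2 places, once on each strand, and every other gene with it held it once. Matches to the ER stress element reached from 212 bases before the start in Hsp90b1 to 26 bases before it in Syvn1. The second form lay 52 to 42 bases before the start in Herpud1 and 7 to 17 bases after it in Dnajb11. A match is a description of these letters and does not show that a factor binds there.

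**Figure D1:**
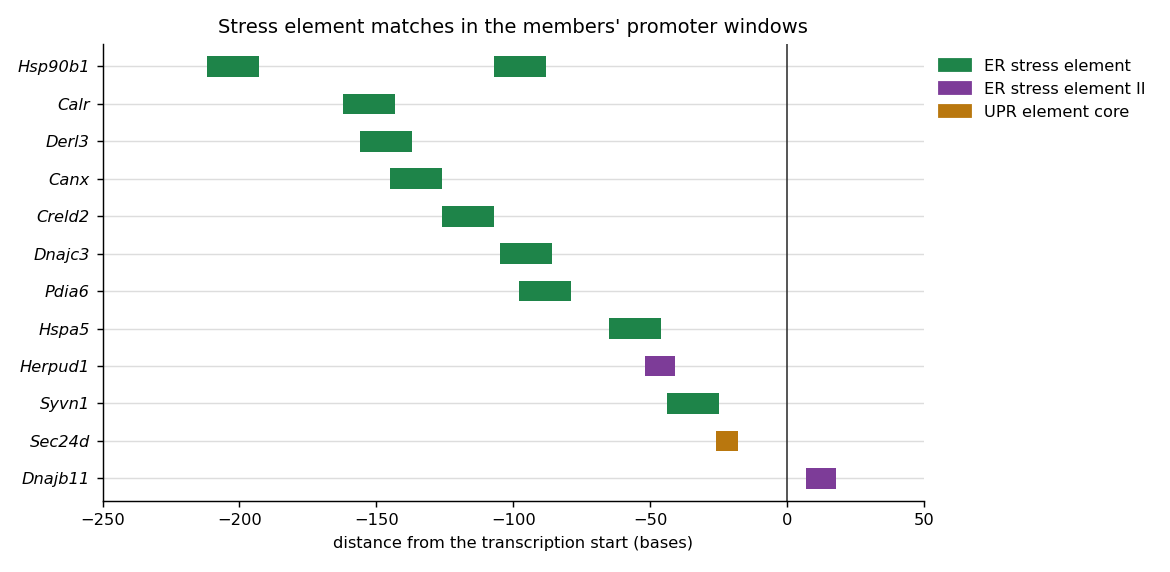
Position of each match to the ER stress element, its second form and the unfolded protein response element core in the 300-base promoter windows of the genes that held one; the horizontal axis is the distance in bases from the transcription start (vertical line). Hsp90b1 has 2 matches, and the Dnajb11 match alone lies after the start.

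The libraries held 46892488 to 54252486 counts each, and counts below are given as CPM, the usual counts scaled to library size, with library sizes adjusted by TMM. The 31 genes were well covered, with Derl3 (18 to 40 counts in MA libraries and 44 to 70 in M libraries) the exception. Within the MetSA group, replicate 3 stood apart: its counts differed from those of the other 2 MetSA libraries by a chi-square of 44.7 and 55.6 per degree of freedom, against 9.14 to 29.6 for every other pair within a group, and 1.28% of its counts were mitochondrial, against 0.759% and 0.833% in the other MetSA libraries. The mitochondrial share was 0.673% to 0.811% in IA libraries, 1.05% to 1.13% in MA libraries and 1.15% to 1.36% in M libraries, and its part in any result was not tested. Values without it are given where a call against M of the 31 genes turned on it.

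Per kilobase of exon, Calr was the most abundant of the genes in M, with 335 CPM per kilobase. It was followed by Hspa5 at 207 and by Hsp90b1 and Pdia3 at 175 CPM per kilobase each. Canx at 146 and P4hb at 144 CPM per kilobase completed the 6 members above 100, a limit set after the values were seen. Derl3, an ERAD channel subunit known mainly from secretory tissues, was the lowest at 0.511 CPM per kilobase. Hsp90b1 and Pdia3 did not differ on this scale beyond their spread between libraries, nor did Canx and P4hb. The protocol in the labels states no strand, and 10.3% of the Hsp90b1 exon bases, 8.85% of those of Manf, 8.16% of those of Sec61a1 and 8.05% of those of Eif2ak3 overlap exons of a gene on the opposite strand, whose reads could not be told apart there.

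Of the 31 genes, 17 rose and 2 fell under IA against M by edgeR's quasi-likelihood test (Benjamini-Hochberg adjusted p under 0.05 over all genes tested), and 12 were not called. Over all genes tested, 17.9% were called higher and 17.3% lower in the same comparison, against 54.8% and 6.45% of the 31. Under MA 13 rose and 1 fell (41.9% and 3.23%), while 10.1% of all genes were called higher and 10.1% lower. Under MetSA 15 rose and none fell (48.4% higher), while 12.6% of all genes were called higher and 8.53% lower. None of the 31 was below M under MetSA at an unadjusted p under 0.05 either, and DESeq2 called none lower, but without MetSA replicate 3 there was 1. The median log2 fold change of the 31 genes was 0.23 under IA, 0.15 under MA and 0.21 under MetSA, against -0.03, -0.02 and -0.01 over all genes tested. The 3 comparisons use the same M libraries, so they are not independent of each other. No gene of the 31 reached a 2-fold change against M in either direction.

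How many members were called depended on the scaling for IA and MetSA. Under upper-quartile scaling, 11 of the 31 rose and 5 fell under IA, and 11 rose and none fell under MetSA. The same scaling took the share of calls that were higher over all genes to 34.8% from 50.9% for IA against M, and to 42.2% from 59.7% for MetSA against M, so the directions below are read relative to the genes at large. The count lower under IA also rested on single libraries: it was 0 without IA replicate 1, 1 without IA replicate 3 or M replicate 2, and 5 without MetSA replicate 3. Under MA the count lower was 0 without MA replicate 1 or M replicate 2 and 3 without M replicate 3.

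**Figure D2:**
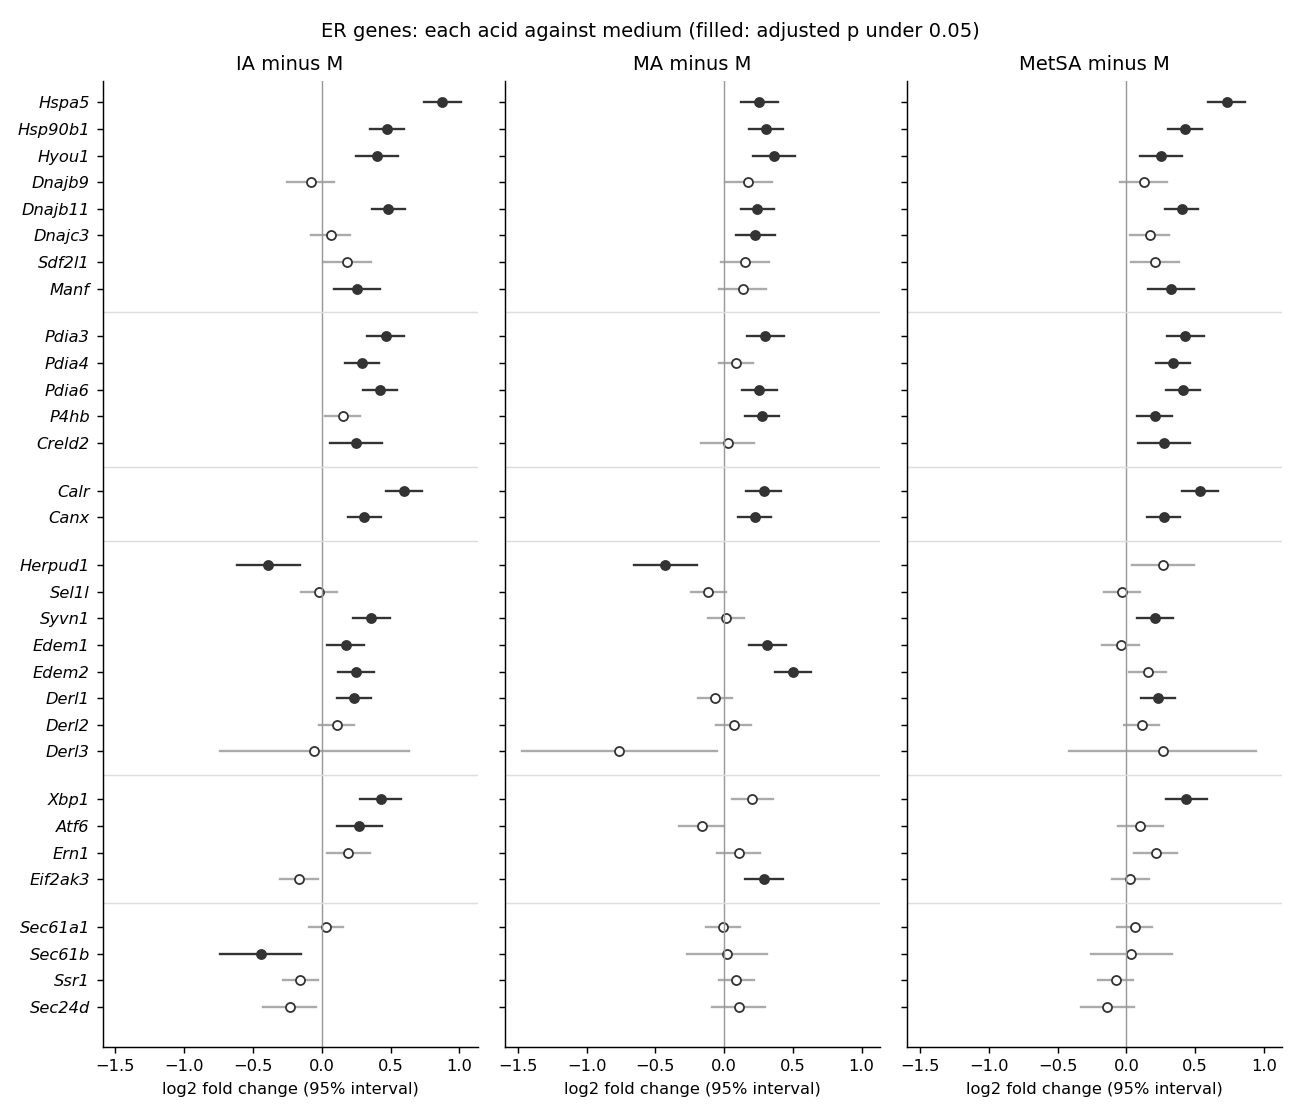
Log2 fold change (horizontal axis) of each of the 31 genes in IA, MA and MetSA minus M, from edgeR's fit over all 12 libraries; bars are 95% intervals, filled points passed an adjusted p under 0.05, and grey lines part the groups of genes by role. Most chaperones, isomerases and lectins lie right of 0 in each panel, Hspa5 farthest under IA and MetSA, while the ER entry and exit genes at the bottom lie around 0 or left of it.

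Hspa5 encodes BiP, the main Hsp70 chaperone of the ER lumen and the protein that holds the sensors inactive. Its level was 1507, 1677 and 1616 CPM in the IA libraries, 1087, 995 and 1048 CPM in the MA libraries and 1443, 1452 and 1447 CPM in the MetSA libraries, against 843, 949 and 828 CPM in the M libraries. Every treated library lay above every M library, and the MA libraries lay apart from and below the IA and MetSA libraries. Hspa5 was 1.83-fold higher under IA (log2 0.87, SE 0.06, adjusted p = 2.34e-09), 1.19-fold higher under MA (log2 0.26, SE 0.06, adjusted p = 0.00601) and 1.66-fold higher under MetSA (log2 0.73, SE 0.06, adjusted p = 6.92e-08). These calls held in each of the 21 alternatives run.

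Of the 8 chaperones and co-chaperones, 5 rose under IA, 5 under MA and 5 under MetSA, and none fell. Over all genes tested, 17.9% were called higher under IA, 10.1% under MA and 12.6% under MetSA. The shares called lower were 17.3%, 10.1% and 8.53%. The counts of each group by role below are to be read beside these shares. Hsp90b1, the ER form of Hsp90 that folds integrins and Toll-like receptors, had 933, 996 and 1000 CPM under IA, 895, 827 and 882 CPM under MA and 927, 952 and 961 CPM under MetSA, against 690, 749 and 672 CPM in M. All 9 treated libraries lay above the 3 of M, and its log2 fold changes were 0.47 under IA, 0.30 under MA and 0.43 under MetSA (SE 0.06 each, adjusted p = 3.03e-06, 0.000804 and 1.99e-05). Dnajb11, a J-domain partner that brings unfolded clients to BiP, had 154, 150 and 159 CPM under IA, 129, 125 and 137 CPM under MA and 150, 146 and 142 CPM under MetSA, against 109, 114 and 108 CPM in M. Its groups did not overlap with M either, and it rose by 0.48, 0.24 and 0.40 on the log2 scale under IA, MA and MetSA (SE 0.06 each, adjusted p = 1.69e-06, 0.00462 and 3.05e-05).

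Hyou1, a large Hsp70-like protein that exchanges the nucleotide of BiP, had 205, 221 and 227 CPM under IA, 225, 211 and 201 CPM under MA and 195, 210 and 183 CPM under MetSA, against 178, 167 and 149 CPM in M. Its ordering differed from that of Hspa5 in that IA and MA libraries overlapped, with log2 fold changes of 0.40 under IA (adjusted p = 0.000201), 0.36 under MA (adjusted p = 0.000988) and 0.25 under MetSA (adjusted p = 0.0161). The value under MetSA did not pass without MetSA replicate 2 (adjusted p = 0.0942) or M replicate 3 (adjusted p = 0.079), nor with only the 6 libraries compared (adjusted p = 0.0523). Manf, a secreted ER-resident factor that binds BiP, rose under IA (log2 0.25, adjusted p = 0.0187) and MetSA (log2 0.32, adjusted p = 0.00654) but was not called under MA (log2 0.13, adjusted p = 0.283). The Manf rise under IA did not hold without M replicate 1 (adjusted p = 0.0898), IA replicate 2 (adjusted p = 0.0554) or IA replicate 3 (adjusted p = 0.0641), nor under upper-quartile scaling (adjusted p = 0.11). Dnajc3 (p58IPK), a co-chaperone that also inhibits PERK, was called under MA alone (log2 0.23, adjusted p = 0.023), a call lost without MA replicate 1 (adjusted p = 0.121), M replicate 1 (adjusted p = 0.0856) or M replicate 3 (adjusted p = 0.0577).

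The remaining co-chaperones were not called in any comparison with M. Dnajb9 (ERdj4), a J-domain protein that keeps IRE1 inactive and is a known target of spliced Xbp1, had 40.1, 44.0 and 41.3 CPM under IA, 49.3, 49.7 and 50.3 CPM under MA and 44.1, 47.0 and 53.2 CPM under MetSA, against 38.7, 47.6 and 46.0 CPM in M. Its IA and MetSA libraries overlapped with those of M, and its MA libraries lay just above them. Its log2 fold change was -0.08 under IA (95% interval -0.25 to 0.09), 0.17 under MA (0.00 to 0.35) and 0.12 under MetSA (-0.05 to 0.30). Sdf2l1, a component of the BiP complex that is also strongly induced by ER stress in other cells, had log2 fold changes of 0.18, 0.15 and 0.21 under IA, MA and MetSA (adjusted p = 0.0995, 0.234 and 0.0904). It was called higher under MetSA without MetSA replicate 3 (log2 0.27, adjusted p = 0.0317).

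Among the 5 disulfide isomerases and folding partners, which form and reshuffle disulfide bonds, 4 rose under IA, 3 under MA and 5 under MetSA. Of all genes tested, 17.9%, 10.1% and 12.6% were called higher under these acids. Pdia3 (ERp57), which works on glycoproteins held by calnexin and calreticulin, had 737, 754 and 784 CPM under IA, 701, 641 and 683 CPM under MA and 725, 702 and 789 CPM under MetSA, against 509, 584 and 555 CPM in M. Every treated library again lay above M, and Pdia3 rose by 0.47, 0.30 and 0.43 on the log2 scale under IA, MA and MetSA (SE 0.06 each, adjusted p = 1.1e-05, 0.00214 and 5.63e-05). Pdia6, an isomerase that also binds activated IRE1, had 267, 274 and 288 CPM under IA, 250, 230 and 258 CPM under MA and 282, 278 and 259 CPM under MetSA, against 209, 203 and 205 CPM in M. The M libraries of Pdia6 were close together and below all others, and its log2 fold changes were 0.43 under IA, 0.26 under MA and 0.41 under MetSA (SE 0.06 each, adjusted p = 1.2e-05, 0.00357 and 3.8e-05).

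The other 3 of this group differed between the acids in what was called. Pdia4 rose under IA (log2 0.29, adjusted p = 0.000629) and MetSA (log2 0.34, adjusted p = 0.000265) and had a log2 fold change of 0.08 under MA (adjusted p = 0.365). P4hb, the founding protein disulfide isomerase, rose under MA (log2 0.28, adjusted p = 0.00235) and MetSA (log2 0.21, adjusted p = 0.0188) and missed the threshold under IA (log2 0.15, adjusted p = 0.0585). Under IA 6 alternatives called P4hb higher, among them the replicate block (adjusted p = 0.0316), DESeq2 (adjusted p = 0.0212) and leaving out MetSA replicate 3 (adjusted p = 0.0254). The P4hb value under MetSA did not pass without MetSA replicate 3 (adjusted p = 0.0871) or M replicate 1 (adjusted p = 0.0558). Nor did it pass under upper-quartile scaling (adjusted p = 0.102) or with only the 6 libraries compared (adjusted p = 0.0779). Creld2, an ER stress-inducible protein with isomerase activity, was just past the threshold under IA (log2 0.25, adjusted p = 0.041) and MetSA (log2 0.27, adjusted p = 0.0385). It lost each of these calls without any 1 of several libraries, among them M replicate 1 and M replicate 3, and under upper-quartile scaling.

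Both lectin chaperones, which bind newly glycosylated proteins through a trimmed sugar, rose under each acid. Calr (calreticulin) had 1484, 1409 and 1486 CPM under IA, 1234, 1079 and 1216 CPM under MA and 1413, 1353 and 1427 CPM under MetSA, against 954, 1010 and 929 CPM in M. As with Hspa5, the MA libraries lay between M and the other treated libraries without overlap. Calr was 1.51-fold higher under IA (log2 0.60, adjusted p = 2.7e-07), 1.22-fold higher under MA (log2 0.29, adjusted p = 0.00194) and 1.45-fold higher under MetSA (log2 0.54, adjusted p = 2.33e-06), with an SE of 0.06 each. Canx (calnexin), its membrane-bound counterpart, rose by 0.31, 0.22 and 0.27 on the log2 scale under IA, MA and MetSA (adjusted p = 0.000301, 0.00844 and 0.00185). The Canx call under MA was lost without MA replicate 1 (adjusted p = 0.0517).

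The 8 genes of ER-associated degradation (ERAD), which mark, extract and ubiquitinate misfolded proteins, did not move together. Under IA 4 rose and 1 fell, under MA 2 rose and 1 fell, and under MetSA 2 rose and none fell. Of all genes tested, 17.9%, 10.1% and 12.6% were called higher under IA, MA and MetSA. The shares called lower were 17.3% under IA and 10.1% under MA, to which 1 of 8 genes is close. Herpud1, a membrane protein that links the ubiquitin ligase to its partners, had 21.4, 24.5 and 25 CPM under IA, 21.2, 23.1 and 24.7 CPM under MA and 32.0, 35.7 and 43.7 CPM under MetSA, against 27.5, 34.0 and 31.3 CPM in M. All IA and MA libraries lay below every M library, and the MetSA libraries overlapped with M at their lower end. Herpud1 fell by 0.39 on the log2 scale under IA (SE 0.11, adjusted p = 0.00954) and by 0.43 under MA (SE 0.11, adjusted p = 0.00854), and its log2 fold change under MetSA was 0.26 (95% interval 0.04 to 0.49, adjusted p = 0.0926).

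The Herpud1 fall under IA was lost without IA replicate 1 (adjusted p = 0.0537) or M replicate 2 (adjusted p = 0.055), and the fall under MA without MA replicate 1 (adjusted p = 0.0514) or M replicate 2 (adjusted p = 0.0516). Its value under MetSA passed the threshold without MetSA replicate 1 (log2 0.36). With the replicate number as a block, Herpud1 was called higher under MetSA as well (log2 0.26).

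Edem2, which trims the first mannose that commits a glycoprotein to degradation, had 65.5, 65.8 and 70.0 CPM under IA, 79.5, 78.4 and 81.9 CPM under MA and 63.5, 63.1 and 61.6 CPM under MetSA, against 55.3, 52.8 and 61.1 CPM in M. The MA libraries were the highest of all. Edem2 was 1.42-fold higher under MA (log2 0.50, SE 0.06, adjusted p = 6.03e-06), 1.19-fold higher under IA (log2 0.25, adjusted p = 0.00399) and not called under MetSA (log2 0.15, adjusted p = 0.0929). The Edem2 call under IA was lost under upper-quartile scaling (adjusted p = 0.056). Without M replicate 3, Edem2 was called higher under MetSA (log2 0.215, adjusted p = 0.0208). Edem1, a related mannosidase-like protein, had 485, 475 and 497 CPM under IA, 572, 520 and 515 CPM under MA and 421, 430 and 403 CPM under MetSA, against 454, 449 and 389 CPM in M. It rose under MA (log2 0.32, adjusted p = 0.00148) and, just past the threshold, under IA (log2 0.17, adjusted p = 0.0461), and its MetSA libraries overlapped with M (log2 -0.04, adjusted p = 0.705). The Edem1 call under IA was lost in 11 of 21 alternatives, among them leaving out any IA library and M replicate 3 (adjusted p = 0.229).

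Syvn1 (Hrd1), the ubiquitin ligase of this pathway, rose under IA (log2 0.36, adjusted p = 0.000153) and MetSA (log2 0.21, adjusted p = 0.0241), where it did not pass without M replicate 1 (adjusted p = 0.138) or MetSA replicate 2 (adjusted p = 0.0976). Nor did Syvn1 pass there under upper-quartile scaling (adjusted p = 0.123), with no filter (adjusted p = 0.0572) or with only the 6 libraries compared (adjusted p = 0.0807). Derl1, a membrane protein of the extraction channel, rose under IA (log2 0.23, adjusted p = 0.00426) and MetSA (log2 0.23, adjusted p = 0.00875). Its value under MetSA did not pass when M replicate 1 was left out (adjusted p = 0.0675) or with only the 6 libraries compared (adjusted p = 0.0524). Under upper-quartile scaling Derl1 was called neither under IA (adjusted p = 0.0682) nor under MetSA (adjusted p = 0.0591). Neither Syvn1 nor Derl1 was called under MA (log2 0.02 and -0.06). Sel1l, the scaffold of the ligase, and Derl2 were not called under any acid with all libraries, with log2 fold changes between -0.11 and 0.11. Sel1l was called lower under MA without M replicate 3 (log2 -0.18, adjusted p = 0.0382). Derl3 was too low to decide: its log2 fold change under MA was -0.76, with a 95% interval of -1.47 to -0.05 and an adjusted p of 0.128.

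Of the 3 sensors and Xbp1, 2 rose under IA, 1 under MA and 1 under MetSA, and none fell. Of all genes tested, 17.9%, 10.1% and 12.6% were called higher, and so few genes do not set this group apart. Xbp1 had 147, 158 and 161 CPM under IA, 132, 130 and 137 CPM under MA and 144, 154 and 171 CPM under MetSA, against 105, 117 and 124 CPM in M. All treated libraries lay above M. Total Xbp1 mRNA was 1.35-fold higher under IA (log2 0.43, SE 0.07, adjusted p = 9.11e-05) and 1.35-fold higher under MetSA (log2 0.43, SE 0.07, adjusted p = 0.000142). It missed the threshold under MA (log2 0.20, adjusted p = 0.0501). Under MA it passed with the replicate number as a block (log2 0.21, adjusted p = 0.00774), in DESeq2 (adjusted p = 0.0402), without MetSA replicate 3 (adjusted p = 0.0221) and in other alternatives.

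Atf6 had 291, 286 and 292 CPM under IA, 221, 217 and 203 CPM under MA and 272, 275 and 225 CPM under MetSA, against 247, 259 and 213 CPM in M. The IA libraries were above all others, and the MA libraries lay at the level of the lowest M library. Atf6 rose under IA (log2 0.27, SE 0.08, adjusted p = 0.0105) and was not called under MA (log2 -0.16, adjusted p = 0.166) or MetSA (log2 0.10, adjusted p = 0.414). The rise under IA did not hold without M replicate 3 (adjusted p = 0.0633) and under upper-quartile scaling (adjusted p = 0.0518). Without M replicate 3, Atf6 was called lower under MA (log2 -0.24, adjusted p = 0.0346).

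Eif2ak3 had 37.6, 37.2 and 36.6 CPM under IA, 49.9, 52.1 and 50.7 CPM under MA and 40.1, 41.9 and 45.2 CPM under MetSA, against 43.9, 40.7 and 40.3 CPM in M. It was the reverse of Atf6 in its order: MA libraries were highest, IA libraries lowest, and MetSA libraries overlapped with M. Eif2ak3 rose under MA (log2 0.29, SE 0.06, adjusted p = 0.00275) and was not called under IA (log2 -0.16, adjusted p = 0.0562). Under IA it was called lower without MetSA replicate 3 (log2 -0.16) and under upper-quartile scaling (log2 -0.25). Ern1 had 97.8, 106 and 96.3 CPM under IA, 92.6, 103 and 87.1 CPM under MA and 92.7, 109 and 102 CPM under MetSA, against 86.5, 92.9 and 83.5 CPM in M. Every IA library lay above every M library, and the MA and MetSA libraries overlapped with M. Ern1 was just short of the threshold under IA (log2 0.19, adjusted p = 0.0516) and MetSA (log2 0.21, adjusted p = 0.0503), and it was not called under MA (log2 0.11, adjusted p = 0.377). Several alternatives called it higher under IA and MetSA, the replicate block among them (log2 0.19 and 0.21), and leaving out MetSA replicate 3 did so under IA (adjusted p = 0.043).

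The 4 genes of ER entry and exit gave no call above M under any acid. Sec61b, a small subunit of the channel, had 14.2, 16.6 and 15.6 CPM under IA, 20.6, 18.4 and 25.3 CPM under MA and 26.1, 20.5 and 18.2 CPM under MetSA, against 18.8, 20.5 and 23.9 CPM in M. Only under IA did the libraries lie below those of M, and there Sec61b fell by 0.44 on the log2 scale (SE 0.14, adjusted p = 0.0209). This call was lost without IA replicate 1 (adjusted p = 0.0858), IA replicate 3 (adjusted p = 0.0779) or M replicate 3 (adjusted p = 0.0932). Sec61a1, the pore itself, had log2 fold changes between -0.01 and 0.06 under the 3 acids. Ssr1, a subunit of the translocon-associated complex, and Sec24d, a cargo adaptor of the COPII coat, had log2 fold changes of -0.16 and -0.23 under IA, 0.09 and 0.11 under MA and -0.08 and -0.14 under MetSA, none of them called with all libraries. Under IA, Ssr1 was called lower with the replicate block (adjusted p = 0.0382), without MetSA replicate 3 (adjusted p = 0.0325) or M replicate 3 (adjusted p = 0.0303) and in 3 other alternatives. Sec24d was called lower there without MetSA replicate 3 (adjusted p = 0.00611) or MetSA replicate 1 (adjusted p = 0.0236) and in 4 other alternatives. Sec24d was also called lower under MetSA without MetSA replicate 3 (log2 -0.29, adjusted p = 0.00559).

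**Figure D3:**
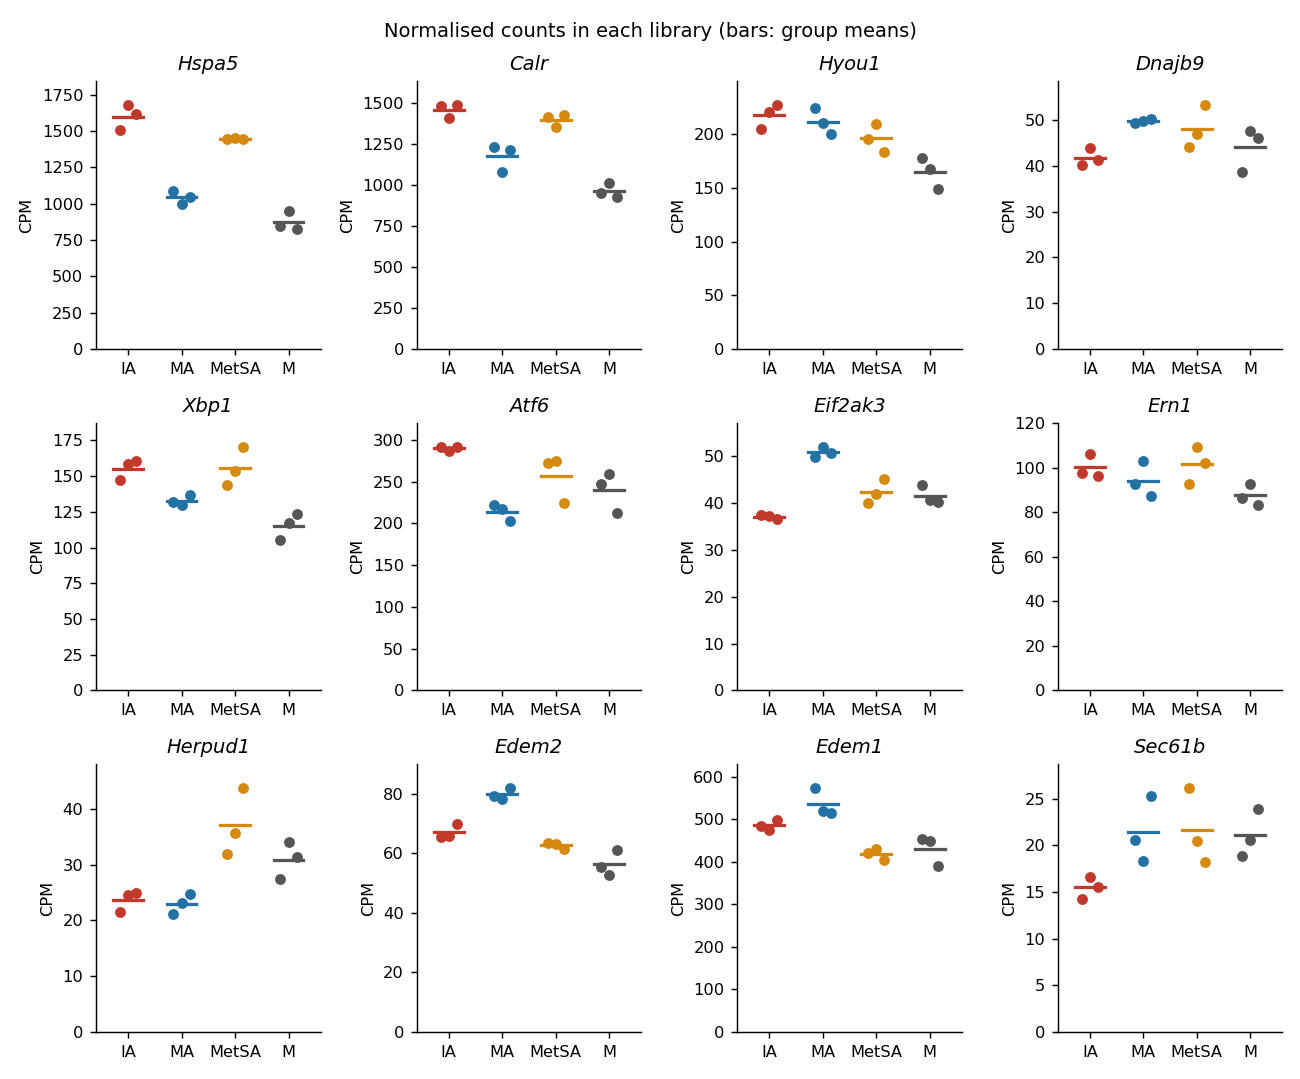
Normalised counts (CPM, vertical axes from 0) of 12 of the genes in each library of the IA, MA, MetSA and M groups; points are libraries and bars are group means (n = 3 each). Hspa5 and Calr are lowest in M and intermediate under MA, Eif2ak3 and Edem2 are highest under MA, and Herpud1 is lower under IA and MA than in M.

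The acids were compared with each other at the same 5 mM and 16 h, over 3 pairs. Between IA and MetSA, which differ by that double bond, none of the 31 genes was called higher and 1, Herpud1, was called lower, against 3.97% of all genes called higher and 2.15% lower. Before adjustment, 4 were higher and 4 lower at p under 0.05, and DESeq2 called 1 higher and 2 lower. Herpud1 had 21.4, 24.5 and 25 CPM under IA, against 32.0, 35.7 and 43.7 CPM under MetSA, with no overlap. Its log2 fold change was -0.65 (SE 0.11; 95% interval -0.88 to -0.42, adjusted p = 0.0018), and this held in all 21 alternatives. For 28 of the 31 genes the 95% interval of the difference between IA and MetSA lay within 0.5 either way on the log2 scale, and for 20 within 0.25. The interval was 0.01 to 0.28 for Hspa5 (adjusted p = 0.199), whose IA libraries nevertheless all lay above its MetSA libraries. It was -0.07 to 0.19 for Calr, -0.15 to 0.14 for Xbp1 and -0.78 to -0.18 for Sec61b (adjusted p = 0.0553). Sec61b was called lower without MetSA replicate 3 (log2 -0.59), in DESeq2 and in other alternatives, and Edem1 was called higher without M replicate 3 (log2 0.22) or with the replicate number as a block (log2 0.22). A p that misses the threshold does not show that IA and MetSA act alike on these genes.

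Between IA and MA, 11 of the 31 genes were called higher and 6 lower, against 17.8% of all genes called higher and 16.8% lower. Hspa5 was 1.53-fold higher under IA than under MA (log2 0.62, 95% interval 0.48 to 0.75, adjusted p = 1.98e-07), and Calr 1.24-fold higher (log2 0.31, adjusted p = 0.000476). Atf6 was higher under IA by 0.44 (adjusted p = 0.000202), Syvn1 by 0.35 (adjusted p = 0.000221) and Derl1 by 0.30 (adjusted p = 0.00051) on the log2 scale. Eif2ak3 went the other way, at -0.45 (SE 0.06, adjusted p = 1.41e-05), as did Edem2 at -0.25 (adjusted p = 0.00356), Ssr1 at -0.24 (adjusted p = 0.00376), Sec24d at -0.34 (adjusted p = 0.00733) and Dnajb9 at -0.25 (adjusted p = 0.0205). The remaining called genes, Pdia3, Pdia4, Pdia6, Hsp90b1, Dnajb11 and Xbp1 higher and Sec61b lower, had log2 fold changes of 0.17 to 0.24 and of -0.47. The number called higher was 6 without MA replicate 2 and 7 without IA replicate 2 or IA replicate 3, and the number called lower was 3 without IA replicate 3. In the blocked fit by replicate number, Dnajc3 was also called lower (log2 -0.17) and Creld2 higher (log2 0.22). There were 6 higher and 9 lower under upper-quartile scaling, which took the share of higher calls over all genes to 37.5% from 51.5%.

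Between MA and MetSA, 3 of the 31 were called higher and 10 lower, against 11.6% of all genes called higher and 14.7% lower. The 3 higher under MA were Edem1 (log2 0.36, adjusted p = 0.000278), Edem2 (log2 0.35, adjusted p = 0.000231) and Eif2ak3 (log2 0.26, adjusted p = 0.00426). Herpud1 had a log2 fold change of -0.69 (adjusted p = 7.5e-05), Hspa5 of -0.47 (adjusted p = 8.18e-06), Derl1 of -0.29 (adjusted p = 0.000785) and Calr of -0.25 (adjusted p = 0.00433). The others called lower were Pdia4, Atf6, Xbp1, Syvn1, Dnajb11 and Derl3. Without MetSA replicate 3, Xbp1 (adjusted p = 0.0975) and Syvn1 (adjusted p = 0.0559) were not called. Manf, Pdia6 and Creld2 were then called lower (log2 -0.26, -0.19 and -0.33), and Ssr1 and Sec24d were called higher (log2 0.21 and 0.39). Xbp1 was also lost without MA replicate 1 (adjusted p = 0.0614) or MA replicate 2 (adjusted p = 0.0813), and under upper-quartile scaling (adjusted p = 0.0738). Syvn1 was also lost without MA replicate 1 (adjusted p = 0.119), MA replicate 2 (adjusted p = 0.077) or MetSA replicate 2 (adjusted p = 0.122), under upper-quartile scaling (adjusted p = 0.12) and with no filter (adjusted p = 0.0767). Dnajb11 was lost in many alternatives, among them without MA replicate 2 (adjusted p = 0.191) or MetSA replicate 1 (adjusted p = 0.15). Atf6 was lost without MetSA replicate 1 (adjusted p = 0.0776), MetSA replicate 2 (adjusted p = 0.0969) or MA replicate 3 (adjusted p = 0.078). Derl3 was lost without MA replicate 2 (adjusted p = 0.133) or MetSA replicate 2 (adjusted p = 0.104), among others. The Derl3 value of -1.02 rests on fewer than 41 counts in each MA library (SE 0.34). The number called lower was 6 without MA replicate 2 or MetSA replicate 2, and the number called higher was 5 without MetSA replicate 3. In the blocked fit by replicate number, Pdia6 and Creld2 were called lower (log2 -0.15 and -0.24) and Ssr1 higher (log2 0.17).

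**Figure D4:**
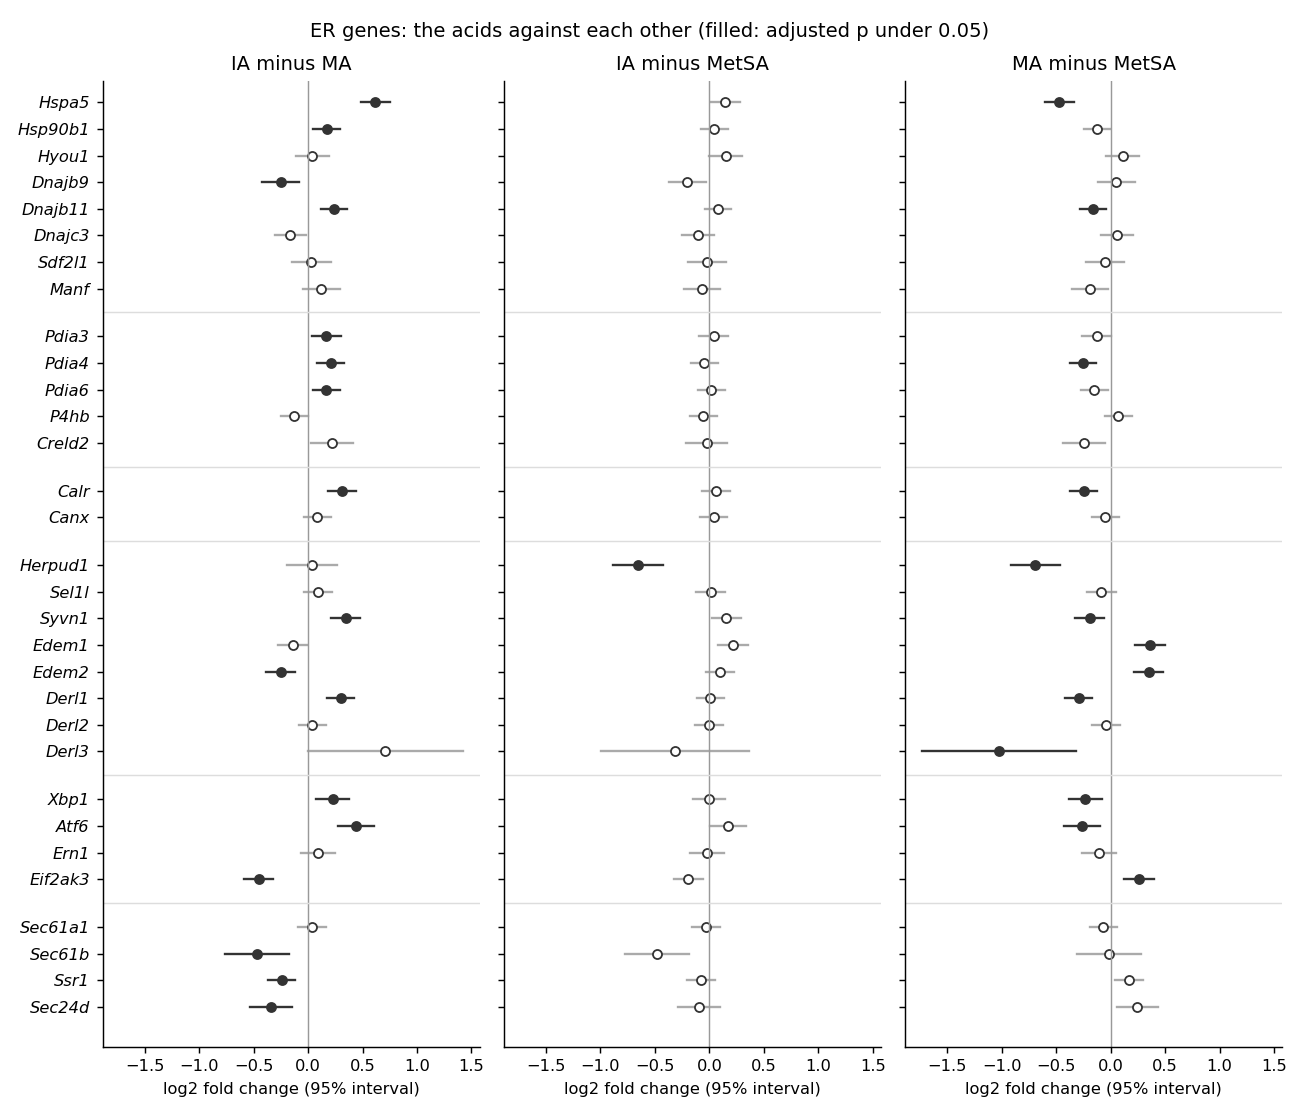
Log2 fold change (horizontal axis) of each of the 31 genes in IA minus MA, IA minus MetSA and MA minus MetSA, from the same edgeR fit; bars are 95% intervals and filled points passed an adjusted p under 0.05. In the middle panel only Herpud1 is filled, while 17 genes are filled for IA minus MA and 13 for MA minus MetSA.

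Set beside the promoter letters, 8 of the 11 genes with either form of the ER stress element rose and 1 fell under IA, with a median log2 fold change of 0.36, against 5 higher and 1 lower of 15 genes without either (median 0.15). Under MA 7 of the 11 rose and 1 fell (median 0.23), against 5 and none of the 15 (median 0.15). Under MetSA 8 of the 11 rose and none fell (median 0.27), against 4 and none of the 15 (median 0.12). These counts are a description, with no test, and the 5 unmatched genes are in neither group. No gene with the first form was called lower against M. Hspa5 and Calr rose under each acid, and Derl3, too low to decide, was not called against M. Herpud1, with the second form, fell under IA and MA, and each fall was lost when single libraries were left out. Whether the element played a part in any of these changes was not tested. By level in M, 5 of the 6 genes above 100 CPM per kilobase rose under IA and 6 of 6 under MA and MetSA, against 12, 7 and 9 of the 25 genes below it. Of all genes tested, at any level, 17.9% were called higher under IA, 10.1% under MA and 12.6% under MetSA. Hspa5, Hsp90b1, Calr and Canx are both above that limit and among the genes with the element, so the splits by promoter and by level share genes. The part of abundance in the calls was not tested.

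The other genes of the pathway were taken from lists made by function. Their shares called are set against those of all genes tested (17.9% higher and 17.3% lower under IA, 10.1% and 10.1% under MA, 12.6% and 8.53% under MetSA). Of 21 genes of the translocon and signal peptidase, 4 rose (19.0%) and 2 fell (9.52%) under IA, and 2 rose (9.52%) and none fell under MA and under MetSA. The shares higher were near those of all genes. Under IA, Ssr3 and Srpr, of the translocon-associated complex and the signal recognition particle receptor, rose by 0.27 and 0.26 on the log2 scale (adjusted p = 0.00173 and 0.00145), and Sec11c, of the signal peptidase, fell by 0.35 (adjusted p = 0.00249). Of 22 oxidative folding and other folding factors, 3 rose (13.6%) under each acid, and 2 fell (9.09%) under IA. Tmx1, a membrane-bound thioredoxin-like isomerase, had 117, 119 and 115 CPM under IA, against 84.0, 82.6 and 81.2 CPM in M, and rose by 0.51 under IA and by 0.45 under MetSA on the log2 scale (adjusted p = 8.92e-07 and 8.16e-06). Sil1, the other nucleotide exchange factor of BiP, rose by 0.47 under IA and 0.54 under MetSA (adjusted p = 6.76e-05 and 2.43e-05). Ero1lb, an oxidase that recharges the isomerases, rose under MA alone (log2 0.36, adjusted p = 0.000554).

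Of 18 genes of N-glycosylation and the calnexin cycle, 3 rose (16.7%) and 4 fell (22.2%) under IA, near the shares of all genes, 3 rose (16.7%) and none fell under MA, and 1 rose (5.56%) and 2 fell (11.1%) under MetSA. Mlec (malectin), a lectin that binds early glycans in the ER, had 160, 167 and 161 CPM under IA, 256, 261 and 246 CPM under MA and 155, 174 and 170 CPM under MetSA, against 220, 221 and 182 CPM in M. MA libraries lay above M and IA and MetSA libraries below it, with log2 fold changes of -0.35 under IA (adjusted p = 0.000643), 0.29 under MA (adjusted p = 0.00523) and -0.32 under MetSA (adjusted p = 0.00271). Tusc3, a subunit of the oligosaccharyltransferase, fell by 0.51 under IA on the log2 scale (adjusted p = 0.0004). Of 25 further ERAD genes, 5 rose (20%) and 2 fell (8%) under IA, 3 rose (12%) and 1 fell (4%) under MA, and 3 rose (12%) and 2 fell (8%) under MetSA, with shares higher near those of all genes. Rnf139 (TRC8), a membrane ubiquitin ligase, had 61.5, 63.8 and 63.7 CPM under IA, 39.8, 36.6 and 38.2 CPM under MA and 53.8, 48.7 and 51.0 CPM under MetSA, against 33.8, 39.3 and 36.4 CPM in M. It rose under IA (log2 0.79, adjusted p = 2.66e-08) and MetSA (log2 0.49, adjusted p = 2.49e-05), with 22.3% of its exon bases overlapping a gene on the opposite strand. Os9 and Erlec1, lectins that hand trimmed glycoproteins to the Hrd1 ligase, rose under IA (log2 0.42 each, adjusted p = 4.51e-05 and 0.000164) and MetSA (log2 0.27 and 0.28, adjusted p = 0.00466 and 0.00996). Erlec1 also rose under MA (log2 0.23, adjusted p = 0.0295), a call that did not hold without M replicate 1 (adjusted p = 0.158) or any 1 MA library (adjusted p = 0.0544 to 0.109). Its value under MetSA did not pass without M replicate 1 (adjusted p = 0.073). Of the 23 tested genes of transport between ER and Golgi, 4 rose (17.4%) and 2 fell (8.7%) under IA, 2 rose (8.7%) and 1 fell (4.35%) under MA, and 2 rose (8.7%) and none fell under MetSA, again near or below those of all genes. Mcfd2, a partner of the cargo receptor Lman1, had 134, 128 and 123 CPM under IA, 164, 156 and 169 CPM under MA and 128, 120 and 143 CPM under MetSA, against 115, 117 and 108 CPM in M. It was highest under MA (log2 0.52 against M, adjusted p = 8.07e-06).

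Of 16 genes that process or regulate the sensors, 5 rose (31.2%) and 2 fell (12.5%) under IA, 4 rose (25%) and none fell under MA, and 3 rose (18.8%) and none fell under MetSA. Rtcb, the RNA ligase that joins the exons of Xbp1 after IRE1 has cut them, had 103, 93.8 and 106 CPM under IA, 169, 163 and 194 CPM under MA and 98.5, 91.3 and 111 CPM under MetSA, against 86.4, 88.3 and 94.5 CPM in M. The MA libraries stood clear of all others. Rtcb was 1.95-fold higher under MA (log2 0.97, SE 0.08, 95% interval 0.80 to 1.13, adjusted p = 2.31e-08) and was not called under IA (log2 0.17, adjusted p = 0.113) or MetSA (log2 0.16, adjusted p = 0.17). With the replicate number as a block it was called higher under both (log2 0.17 and 0.16, adjusted p = 0.0221 and 0.0437), and under IA also with only the 6 libraries compared (adjusted p = 0.0404). The difference was also called between IA and MA (log2 -0.80, adjusted p = 1.21e-07). Tmbim6, a membrane protein that restrains IRE1, and Bak1, a mitochondrial and ER protein of cell death that binds IRE1, rose under IA (log2 0.46 and 0.52) and MetSA (log2 0.32 and 0.30) and had log2 fold changes of -0.00397 and -0.04 under MA, with 25.5% of the Bak1 exon bases overlapping a gene on the opposite strand.

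Of 15 genes of the arm from PERK over Atf4 to Ddit3, 6 rose (40%) and none fell under IA, 2 rose (13.3%) and 3 fell (20%) under MA, and 3 rose (20%) and 1 fell (6.67%) under MetSA. Ddit3 (CHOP), a transcription factor of late ER stress, had 26.7, 22.0 and 21.6 CPM under IA, 7.49, 9.25 and 9.79 CPM under MA and 22.0, 21.8 and 14.3 CPM under MetSA, against 9.93, 11 and 11.8 CPM in M. IA and MetSA libraries lay above M, MetSA replicate 3 being the lowest of them, and MA libraries lay below it. Ddit3 was 2.15-fold higher under IA (log2 1.10, SE 0.15, adjusted p = 3.23e-05) and 1.77-fold higher under MetSA (log2 0.83, SE 0.15, adjusted p = 0.000894), and was not called under MA (log2 -0.30, 95% interval -0.64 to 0.03, adjusted p = 0.207). With no filter on low counts, Ddit3 was called lower under MA (adjusted p = 0.0474). It differed between IA and MA (log2 1.41, adjusted p = 2.3e-06) and between MA and MetSA (log2 -1.13, adjusted p = 3.18e-05), and between IA and MetSA the interval was -0.04 to 0.59.

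Atf4 itself, which is controlled mainly at translation, had 114, 91.8 and 92.3 CPM under IA, 73.3, 67.7 and 74.2 CPM under MA and 93.0, 89.4 and 95.1 CPM under MetSA, against 82.0, 79.9 and 89.9 CPM in M. It rose under IA (log2 0.24, adjusted p = 0.0196), fell under MA (log2 -0.23, adjusted p = 0.0474) and was not called under MetSA (log2 0.14, adjusted p = 0.226). The rise did not hold without IA replicate 1 (adjusted p = 0.175), M replicate 1 (adjusted p = 0.0645) or M replicate 2 (adjusted p = 0.0834), nor under upper-quartile scaling (adjusted p = 0.137). The fall was lost in 9 of 21 alternatives, all of them leaving out 1 library. Sesn2, an Atf4 target, rose under IA (log2 0.60, adjusted p = 9.53e-06), MA (log2 0.28, adjusted p = 0.0215) and MetSA (log2 0.54, adjusted p = 6.47e-05). Its rise under MA did not hold without M replicate 1 (adjusted p = 0.109) or MA replicate 2 (adjusted p = 0.102). Asns and Bbc3, of the same list, went the other way: both were called lower under MA, and Asns also under MetSA. Under IA neither was called. Atf3 and Ppp1r15b, which directs the phosphatase that reverses the work of PERK, rose under IA (log2 0.30 and 0.36, adjusted p = 0.00137 and 0.000347) and were not called under MA or MetSA. Atf3 was called lower under MA with the replicate number as a block (log2 -0.15, adjusted p = 0.042). Trib3, a target of Atf4 and Ddit3, was low, at 2.38 to 5.37 CPM under IA, against 1.95 to 2.82 CPM in M, and was not called (log2 0.59, adjusted p = 0.111). It was called higher under IA with no filter on low counts (adjusted p = 0.0301) or without IA replicate 2 (log2 0.81, adjusted p = 0.0377).

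**Figure D5:**
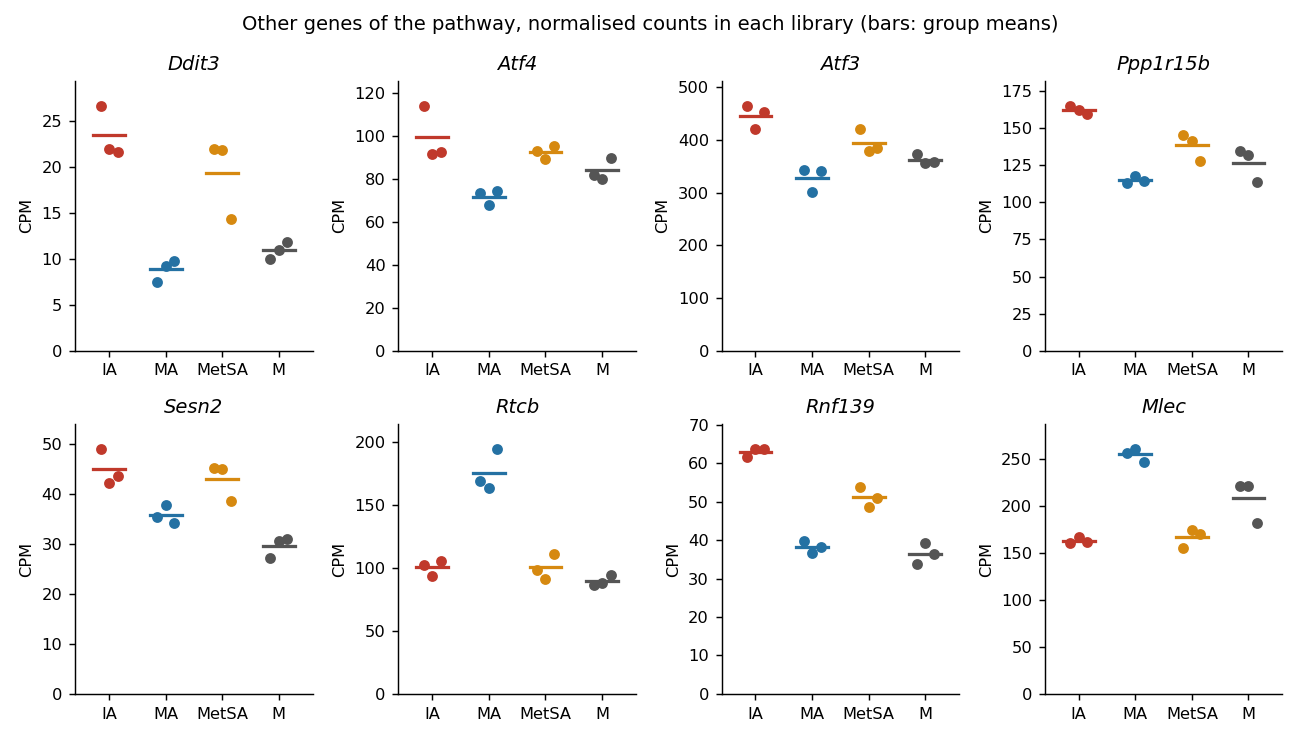
Normalised counts (CPM, vertical axes from 0) of 8 further genes of the pathway in each library of the IA, MA, MetSA and M groups; points are libraries and bars are group means (n = 3 each). Ddit3 and Rnf139 are higher under IA and MetSA than under MA and in M, and Rtcb stands apart under MA.

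The labelled cell type was checked against marker genes. All 10 macrophage markers were detected, with a summed level of 25700 to 28500 CPM under IA, 28800 to 30900 CPM under MA and 27100 to 33600 CPM under MetSA, against 24900 to 27200 CPM in M. Of these markers 6 rose under IA, 2 rose and 2 fell under MA, and 7 rose under MetSA, and their part in the results above was not tested. For these and the marker lists below, 17.9% of all genes tested were called higher and 17.3% lower under IA. The shares were 10.1% and 10.1% under MA, and 12.6% and 8.53% under MetSA. Plasma and B cells, which carry much ER, had markers with a summed level of 167 to 224 CPM under IA, 233 to 258 CPM under MA and 189 to 271 CPM under MetSA, against 235 to 272 CPM in M, with Ighm the largest. Of the 6 plasma and B cell markers tested, 1 fell under IA, close to the share of all genes, 2 rose under MA and 1 rose under MetSA. Their part in the results was not tested. Stromal and neutrophil markers summed to at most 41.6 and 101 CPM in any library. The 7 T cell markers, with Cd3g at 0 and Cd4 the largest, summed to 21.6 to 30.7 CPM under IA, at most 10.7 CPM under MA and 21.2 to 27.5 CPM under MetSA, against 12.2 to 14.8 CPM in M. The 7 dendritic cell markers summed to 8.28 to 10.4 CPM under IA, 4.19 to 5.08 CPM under MA and 5.77 to 9.23 CPM under MetSA, against 3.72 to 5.29 CPM in M. Both sums were thus higher under IA and MetSA than in M, as Hspa5 and Ddit3 were, and their part in those results was not tested. The 7 osteoclast markers summed to 52.9 to 64.7 CPM under IA, 62.1 to 75.1 CPM under MA and 66.0 to 88.4 CPM under MetSA, against 142 to 157 CPM in M, with Atp6v0d2 the largest. Of the 5 tested, 1 rose and 2 fell under each acid, and the part of these markers in the results was not tested. In such bulk samples, fewer cells of a type and less RNA per cell cannot be told apart.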

How the data were processed

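Polyadenylated RNA of 12 macrophage samples was sequenced. Per the submitters' processing notes, STAR and featureCounts were used with build mm10 (versions not given in the sources used here), and the deposited table holds raw whole-number counts per gene with no normalization by the authors; no value column was left unused. The 12 libraries were grouped by the labels. Of 32285 genes, 32158 had a symbol in the annotation used here, and genes without one held 0.0267% of the counts. The members and lists were chosen with earlier results of these data known.

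Counts were filtered by filterByExpr (14113 genes, 99.98% of counts), scaled by TMM and fitted in edgeR 4.0.16 (R 4.3.3) with robust quasi-likelihood over all 4 groups (8 residual degrees of freedom), for 6 comparisons, each adjusted by Benjamini-Hochberg over all genes tested. A call is an adjusted p under 0.05. Standard errors are the log2 fold change over the square root of its F, and 95% intervals use the fit's degrees of freedom. CPM per kilobase uses the union of a gene's annotated exons. The step was tested on simulated data. Of counts from 1 to 9, 66.07% were even, against 50.86% of counts of 1000 or more, so the mates of a pair may have been counted separately. The even share at high counts does not show whether this held there too. Halved counts were run as an alternative.

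The members given in each library were, by rule, those called without overlap of the groups and among the 6 largest changes in a comparison with M, up to 4 called against the members' median direction, up to 4 called between IA and MetSA, and the sensors; Dnajb9 was added after its values were seen. From each list up to 3 genes with the smallest adjusted p against M could be named, plus Atf4, Ddit3, Trib3 and Atf3. Asns and Bbc3 were added after their values were seen, for their falls. Alternatives were DESeq2 1.42.0, RLE and upper-quartile scaling, no filter, a mean of at least 10 CPM, only the libraries compared, a replicate block, adjustment over all comparisons, and leaving out each library. Whether replicate numbers pair the libraries was checked by correlating their deviations from the group means. A protein table was not used here.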

Additional observations from a re-analysis of the deposited data

How the results depend on the processing

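Over 21 alternatives no called value changed sign; 330 of the 378 recomputed counts of genes called stayed within 1.5 times their value. Of the calls against M, 11 of 19 under IA, 11 of 14 under MA and 10 of 15 under MetSA held in all 21. For the counts that moved the cause was not tested. Members called under upper-quartile scaling were 11 higher and 5 lower for IA against M, 6 higher for IA against MA, 5 higher for MA against MetSA and 2 lower for IA against MetSA; the share of higher calls over all genes was then 54.2% for IA against MetSA (64.8% with TMM) and 54.5% for MA against MetSA (44.1% with TMM), and the median of all genes in IA against M was -0.12. With at least 10 CPM on average (30 members), 5 were lower for IA against M, 7 higher for IA against MA, 3 lower for IA against MetSA and 5 higher for MA against MetSA. For IA against MetSA, 1 member was higher under RLE scaling, 1 higher and 2 lower without a filter or in DESeq2, and 1 higher and 3 lower with adjustment over all 6 comparisons. RLE scaling and DESeq2 gave 5 members higher for MA against MetSA. All genes called for IA against MetSA numbered 864, against 1483 without a filter, 575 with the 6 libraries compared, 1571 with adjustment over all comparisons and 1333 in DESeq2.

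Leaving out 1 library gave 14 to 19 members higher for IA against M, 11 to 14 for MA against M and 11 to 17 for MetSA against M. The members lower were 0 to 5 for IA against M, 0 to 3 for MA against M and 0 to 1 for MetSA against M. Leaving out 1 library gave 6 to 12 higher and 3 to 6 lower for IA against MA, 0 to 1 higher and 1 to 2 lower for IA against MetSA, and 3 to 5 higher and 6 to 11 lower for MA against MetSA. All genes called for IA against MetSA ranged from 420 without IA replicate 3 to 974 without M replicate 3. Same-numbered libraries deviated together weakly but always positively (correlations of 0.0122 to 0.169 over 18 pairs, 2 of them over 0.1). Correlations between libraries of unlike number were -0.113 to 0.0233. In 35 of 36 cases a library correlated best, in another group, with its own number, and 11 of 12 libraries did so in every other group. The same replicate numbers recur in every group, but the labels do not say what they stand for, so the main fit did not pair the libraries. These correlations do not show that the libraries are unpaired, and calls near the threshold should be read beside the blocked fit. With the replicate number as a block, members called were 19 higher and 3 lower for IA against M, 14 higher and 1 lower for MA against M, 17 higher for MetSA against M and 1 higher for IA against MetSA, where 1413 of all genes were called. Depth limits Derl3 and Trib3, whose intervals are wide.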
